A study of Apis mellifera with 24 samples.

Results

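Transposable elements (TEs) on chromosome 16 of the honey bee, Apis mellifera, were described by the piRNA-length reads that fell on them in 5 reproductive tissues. A TE was taken as a member when the first chromosome given for it in the TE annotation of the Amel 4.5 assembly is 16, which gave 1159 of 34760 TEs (3.33%). Of these, 56 shared at least 1 base with the main piRNA cluster of the study, on chromosome 16 from base 246693 to base 391513 (144.8 kb), and the other 1103 made up the rest of the chromosome. The cluster was delimited by the study from the density of such reads in the same series, so its excess over the rest of the chromosome is a description and was not tested.

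piRNAs are small RNAs bound by PIWI proteins of the Argonaute family. They are cut from long single-stranded transcripts of loci called piRNA clusters, which in Drosophila hold remnants of many TEs, and they guide the silencing of TEs with complementary sequence in the germline. A piRNA antisense to a TE can pair with that TE's transcript, whereas a sense piRNA has the sequence of the transcript itself. Among the TEs here, LARDs (large retrotransposon derivatives) and TRIMs (terminal-repeat retrotransposons in miniature) are non-autonomous class I elements that lack the coding sequence needed to move. Class II elements are DNA transposons, among them the Tc1-Mariner, PiggyBac and hAT families, which move as DNA with the help of a transposase.

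The bees were Australian commercial stock, mainly of A. m. ligustica heritage, with no genetic change in any group. Ovaries (3 libraries) and spermathecae, where the sperm of past matings is kept (3 libraries), came from naturally mated, laying queens. Eggs (8 libraries) were under 24 h old, with 2 libraries each of fertilised and unfertilised eggs of mated queens and of eggs laid by virgin queens in worker and in drone cells, after carbon dioxide narcosis to induce laying. Testes (8 libraries) came from drone pupae of a single colony, dissected 24 h (3 libraries), 72 h (2 libraries) or 144 h (3 libraries) after pupation by the labels, and semen (2 libraries) came from pooled adult drones. The tables give 1 pooled column per tissue, so the columns for eggs and testes may span several conditions, and no marker mRNA was measured against which a tissue label could be checked. No value has a spread between replicates, no p-value can be given, and a difference between tissues has no replicate check. The intervals are 95% Wilson intervals, and none is printed where it is narrower than the rounding. Some wider ones are left out too, so a share without an interval need not be exact to its digits, above all in semen. The intervals cover counting error only, since PCR copies carry no molecular identifiers and reads are not independent molecules.

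The depth of the columns differed widely. Reads on all TEs, sense and antisense, summed to 57645559 in ovaries, 88755771 in eggs, 1152010 in testes, 133767 in semen and 6030354 in spermatheca. From the flow cells given, the 2 semen libraries shared a lane with 4 of the 8 egg libraries, the ovary libraries with 2 of the spermatheca libraries, and the testes libraries with 1 spermatheca library.

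The 56 TEs of the cluster held nearly all the counts of chromosome 16 in every tissue. Their counts were 44838363 in ovaries, 70130009 in eggs, 221726 in testes, 6010 in semen and 4580956 in spermatheca, against 2964, 3929, 958, 41 and 544 on the 1103 TEs of the rest of the chromosome. As a share of the counts on chromosome 16 TEs, the cluster thus held 99.99% in ovaries, eggs and spermatheca, 99.57% (99.54 to 99.60) in testes and 99.32% (99.08 to 99.50) in semen. As a share of the counts on all TEs of the genome, it held 77.8% in ovaries, 79.0% in eggs and 76.0% in spermatheca, 19.2% (19.2 to 19.3) in testes and 4.49% (4.38 to 4.61) in semen, with 0.161% of the TE entries. The female tissues and eggs thus lay between 76.0% and 79.0%, with testes and semen far below them. The share moved with the denominator in all 5 tissues. Over TE and gene counts together it was 69.87% in ovaries, 70.65% in eggs, 61.51% in spermatheca, 10.5% in testes and 2.12% in semen. In semen it was 11.3% when a single TE outside the cluster with most of that tissue's TE counts was left out.

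Each of the 56 cluster TEs had counts in at least 1 tissue, and 39 of them (69.6%) had counts in all 5. In ovaries and eggs 56 had at least 1 count, in spermatheca 55, in testes 52 and in semen 40. In the rest of the chromosome 829 of 1103 TEs (75.2%) were at 0 in every tissue, beside 70.9% of all TEs of the genome, and 8 had counts in all 5 tissues. TEs of the rest with at least 1 count numbered 150 in ovaries (13.6%), 130 in eggs (11.8%), 91 in testes (8.25%), 25 in semen (2.27%) and 105 in spermatheca (9.52%). Over all TEs these shares were 17.7%, 17.0%, 12.3%, 4.32% and 14.5%, each above that of the rest. All TEs include the 56 and those of the study's other piRNA clusters, whereas the rest has its cluster taken out. The lower shares of the rest, and its higher share at 0, thus cannot be read as a trait of the chromosome. Part of the rest was very short, with 31 entries under 26 bases, the shortest read kept.

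**Figure D1:**
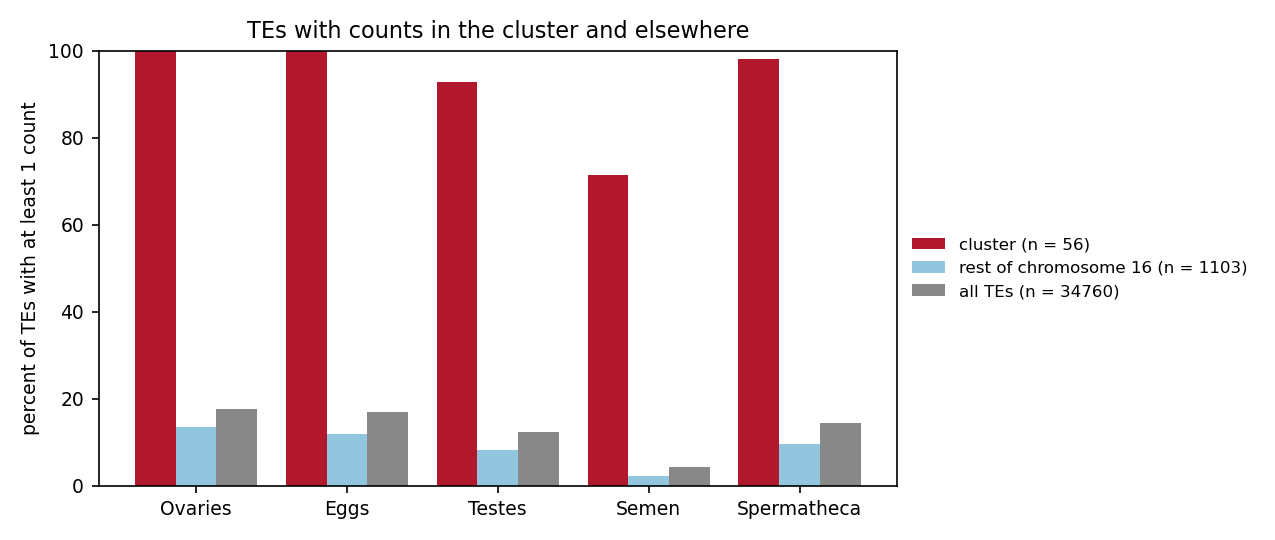
Percent of TEs with at least 1 count of either direction, by tissue, for the 56 TEs of the cluster, the 1103 of the rest of chromosome 16 and all 34760 TEs. The cluster bars stand between 71.4% (semen) and 100% (ovaries and eggs), and the bars of the rest lie between 2.27% and 13.6%, below all TEs in each tissue. All TEs include those of this and other piRNA clusters, whereas the rest has its cluster taken out.

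The TEs of the cluster also differed from the rest in kind, which the rule did not use. Of the 56, 21 were LARDs, 33 were class II elements and 2 had no class, and there was no TRIM among them. The rest held 512 LARDs, 211 TRIMs, 49 other class I elements, 272 class II elements and 59 without a class. The median length was 552.5 bases in the cluster and 177 bases in the rest. A gene overlapped 7 of the 56 cluster TEs (12.5%) and 560 of the 1103 others (50.8%). Among the 7, MARINER_TF was overlapped outside the cluster, by GB45607 at bases 5090008 to 5090361.

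The upper edge of the cluster cut through ms35614, a class II element at bases 391355 to 391522, which had 22 sense and 244 antisense counts in ovaries. Outside the edges, the nearest TEs were ms35606, 926 bases below, and ms36017, 56284 bases above, and both were at 0 in all tissues. The first TE inside the lower edge, the LARD ms35602, had 4 antisense counts in ovaries and 3 in eggs. Counts were thus near 0 at the lower border, and no TE lay in the stretch just above the upper one.

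By gaps of over 10 kb between TEs, a division chosen after the data were seen, the cluster fell into 3 blocks. The first block (bases 251918 to 295443) held 20 TEs, 17 of them LARDs. The second (312255 to 319209) held 2 LARDs, ms35547 and ms35548, both annotated on the plus strand. The third (333536 to 391522) held 34 TEs, of which 30 were class II elements, 7 were annotated on the plus strand and 26 on the minus strand. The remaining TE, MARINER_TF, was given no single strand. Its chromosome 16 segments, not all of them in the cluster, carry both strands.

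**Figure D2:**
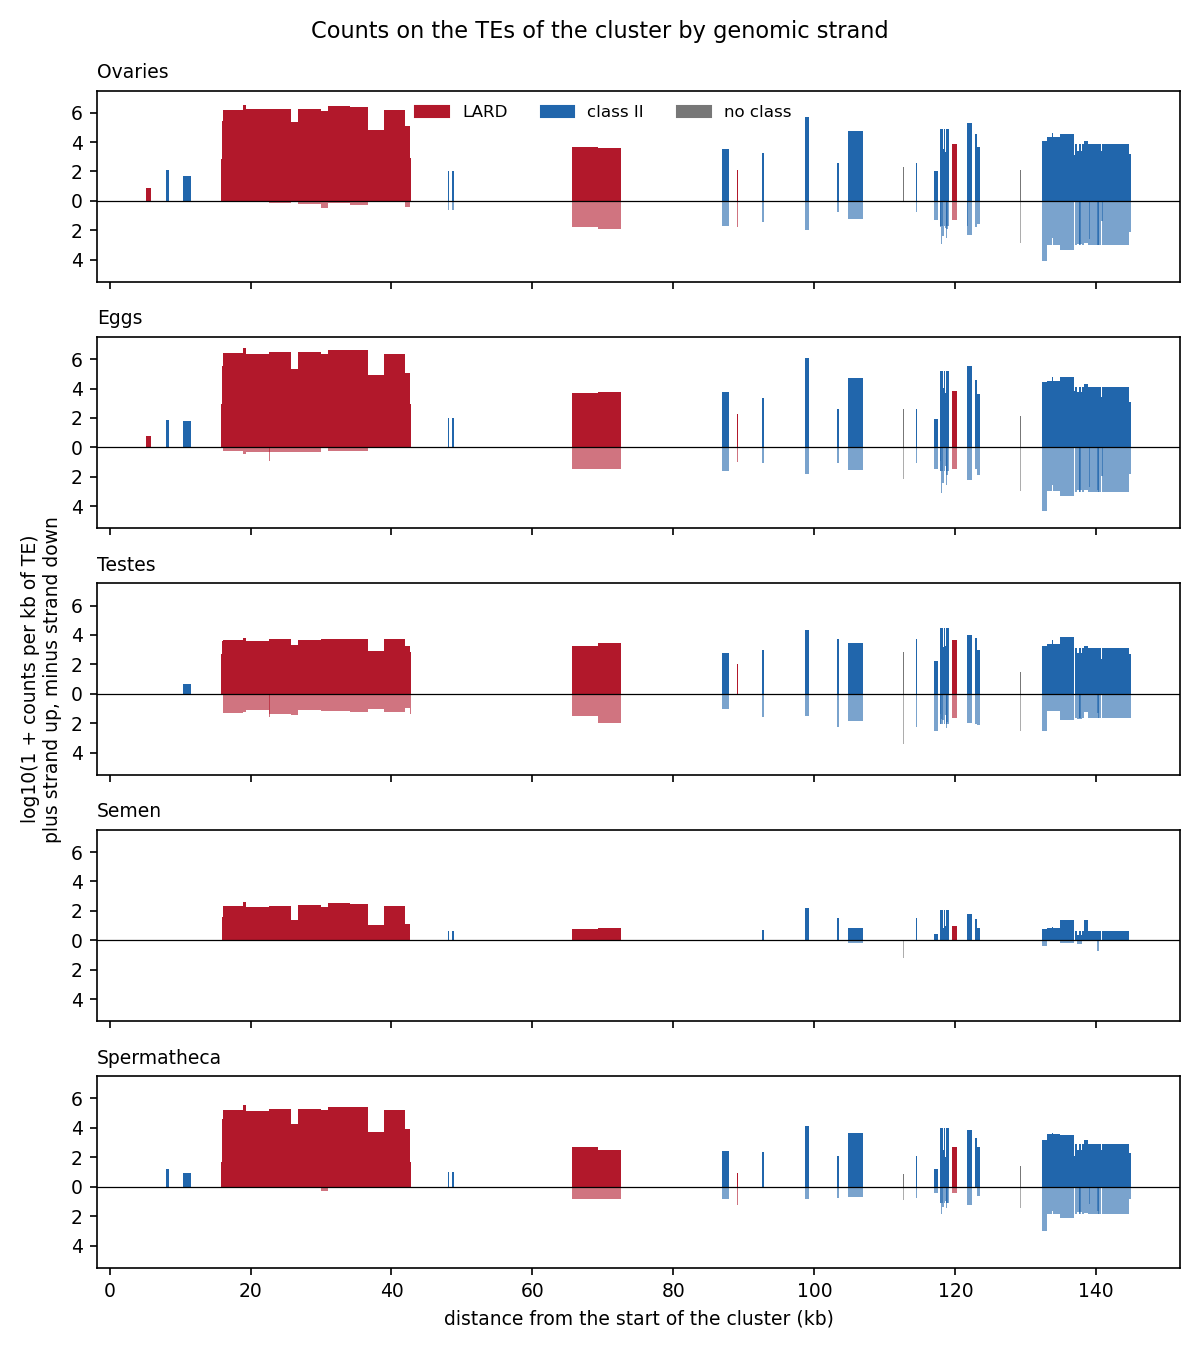
Counts per kb of TE, as log10(1 + counts per kb), for each segment of the cluster's TEs against distance from the start of the cluster, 1 panel per tissue, with plus-strand counts upwards and minus-strand counts downwards. MARINER_TF, whose chromosome 16 segments inside and outside the cluster carry both strands, is left out. The LARD array at about 16 to 43 kb has almost no bars below the line in ovaries, eggs, semen and spermatheca and a low continuous band below it in testes.

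Inside the first block 16 LARDs, all on the plus strand, lay end to end from base 262520 to base 289417 (26.9 kb), with gaps of 0 to 12 bases between neighbours and no gap at 13 of the 15 joins. This LARD array held 98.2% of the cluster's counts in ovaries, 97.9% in eggs and 98.8% in spermatheca. In testes it held 53.2% (52.9 to 53.4) and in semen 93.5% (92.8 to 94.1). Testes thus had the lowest share, and semen lay near the female tissues in this share. The 7 LARDs of over 2500 bases in the array (2618 to 3319 bases) carried 91.8% of its counts in ovaries, eggs and semen, 91.7% in spermatheca and 87.7% in testes.

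The single TE with the most counts was ms35558, a LARD of 3083 bases at 277669 to 280751. Its sense counts were 8272632 in ovaries, 12397255 in eggs, 15945 in testes, 1005 in semen and 776012 in spermatheca. Its antisense counts in the same order were 1, 2, 45, 0 and 0. It thus gave almost pure sense reads, with the most antisense reads in testes, a tissue with far fewer counts in all. The next LARDs by mean share over the 5 tissues were ms35556, ms35559, ms35554, ms35552, ms35561 and ms35551, with 4321945 to 6179623 sense counts in ovaries and 11929 to 16069 in testes. Without ms35558 the cluster held 63.4% of TE counts in ovaries, 65.0% in eggs, 63.1% in spermatheca, 17.9% in testes and 3.74% in semen (in testes the leading member left out was ms35561).

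Counts were not even along the array. Per kb of TE, ms51691 (521 bases) was the densest of its LARDs in every tissue, from 5819147.8 counts per kb in eggs (3398036.5 in ovaries) to 428.0 in semen. The LARD ms35559 stood beside ms35560 with no gap, and its density was 37.6 times (37.4 to 37.8) that of ms35560 in ovaries, 50.1 times (49.9 to 50.4) in eggs and 45.2 times (44.4 to 46.0) in spermatheca. In semen this ratio was 31.1 (20.6 to 46.9), and in testes it was 6.56 (6.27 to 6.88). A second step, from ms35554 down to ms35555, was 7.31-fold in ovaries, 14.5-fold in eggs, 11.6-fold in spermatheca, 9.65-fold (6.33 to 14.7) in semen and 2.29-fold (2.19 to 2.40) in testes. At both steps, picked after the values were seen, testes had the flattest profile and semen a step of the same order as the female tissues.

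**Figure D3:**
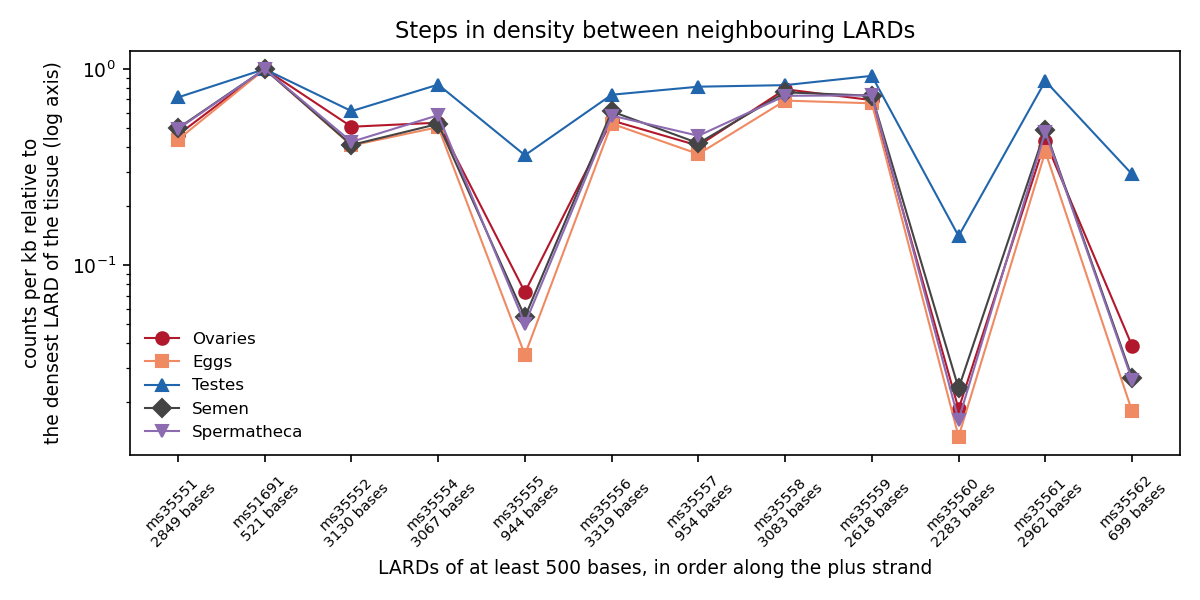
Counts per kb of the 12 LARDs of at least 500 bases in the array, in order along the plus strand, each divided by the densest LARD of its tissue (log axis, 1 line per tissue). The lines of ovaries, eggs, semen and spermatheca fall together at ms35555, ms35560 and ms35562, and the line of testes falls less at each of them.

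Sense and antisense reads become comparable between TEs once the strand of the chromosome is used: plus-strand counts are sense counts of TEs annotated on the plus strand together with antisense counts of TEs annotated on the minus strand. By this measure the cluster was read from the plus strand in every tissue. The plus-strand share of its counts was 99.94% in ovaries, 99.96% in eggs and spermatheca, 99.87% (99.74 to 99.93) in semen and 98.7% (98.7 to 98.8) in testes. In the rest of the chromosome it was 38.4% (36.7 to 40.2) in ovaries, 24.9% (23.6 to 26.3) in eggs, 74.2% (71.4 to 76.9) in testes, 61.0% (45.7 to 74.3) in semen, where it rests on 41 counts, and 33.1% (29.3 to 37.1) in spermatheca. In ovaries, eggs and testes these values rest largely on 1 TE. Without the TE with the most counts in each tissue the share was 49.8% in ovaries, 50.3% in eggs, 52.5% in testes, 58.6% in semen and 39.3% in spermatheca, and without TEs that overlap a gene it was 31.3%, 42.7%, 95.2%, 75% and 25.9%. Both of these semen values rest on fewer than 41 counts.

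The third block shows what this means for single TEs. Its sense share, by the annotation of each TE, was 41.7% in ovaries, 51.2% in eggs, 38.3% in testes, 45.5% (40.4 to 50.7) in semen and 27.5% in spermatheca, whereas its plus-strand share was 96.9%, 98.0%, 97.7%, 97.7% (95.6 to 98.9) and 96.6%. TEs that point along the plus strand gave sense reads there, and those that point against it gave antisense reads. The 12 Tc1-Mariner elements, mostly on the minus strand, gave 97.6% antisense counts in ovaries, 98.7% in eggs, 97.1% in testes, 95.8% in semen and 96.9% in spermatheca. FAMAR1 copy 1, wholly on chromosome 16, gave 131852 of their 156187 antisense counts in ovaries and 6870 of 13709 in testes. The 10 cluster entries that pool segments on other scaffolds are all Tc1-Mariner elements. Their strand is that of their chromosome 16 segments, so their counts need not all be plus-strand reads of the cluster. The 3 PiggyBac elements gave 95.9% antisense in ovaries and 99.3% in testes. Over the entire cluster the antisense counts were 463829 in ovaries and 54357 in testes, and 463212 and 53526 of them lay in the third block.

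Among cluster TEs with at least 20 counts and 1 annotated strand, over 90% of counts came from the plus strand in 45 of 54 in ovaries, 48 of 54 in eggs, 43 of 48 in testes, 15 of 15 in semen and 38 of 42 in spermatheca. Minus-strand counts outnumbered plus-strand counts for ms35595 in ovaries, eggs and testes, and for ms35584 and ms35585 in testes. The class II element ms35543 was nearly even in ovaries, with 7684 sense and 7975 antisense counts, and had 234 sense and 1130 antisense counts in testes.

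Minus-strand reads were close to absent on the LARD array outside testes. They numbered 9 of 44015138 counts in ovaries, 18 of 68631834 in eggs, 1 of 4524417 in spermatheca and 0 of 5619 in semen, but 411 of 117851 in testes (0.349%, 0.317 to 0.384). Testes thus had more minus-strand reads in absolute number than ovaries or eggs, which had far more counts on the same TEs. They were spread over the array, since all 12 LARDs of at least 500 bases had some in testes, at 0.267% to 1.16% of their counts (median 0.298%), and no LARD had over 66. The count of 0 in semen has a Wilson upper limit of 0.0683%, which is below the testes share.

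Counts of ovaries and testes lay nearer to each other on the second block (28282 and 17172) than on the array (44015138 and 117851). Those of testes and semen lay further apart on the block (17172 and 36) than on the array (117851 and 5619). The LARD ms35548 had 11607 sense and 242 antisense counts in ovaries, 17401 and 86 in eggs, 9681 and 297 in testes, 18 and 0 in semen and 959 and 17 in spermatheca. The block as a unit held 0.0631% of the cluster's counts in ovaries and 7.74% (7.63 to 7.86) in testes.

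Class II elements took 1.76% of the cluster's counts in ovaries, 2.08% in eggs and 1.16% in spermatheca, 37.4% (37.2 to 37.6) in testes and 5.77% (5.21 to 6.39) in semen. The most abundant in ovaries was ms35592, a class II element of 542 bases on the plus strand at 345368 to 345909. Its sense counts were 253490 in ovaries, 622285 in eggs, 12449 in testes, 89 in semen and 7016 in spermatheca, or 31.9%, 42.5%, 14.4%, 25.1% and 13.1% of the third block with its few antisense counts. The element with the most antisense counts in ovaries and eggs was FAMAR1 copy 1, a Tc1-Mariner element of 660 bases on the minus strand, with 131852, 239061, 6870, 43 and 5163 antisense counts in ovaries, eggs, testes, semen and spermatheca. In testes and semen it was ms51690, a class II element of 2044 bases on the minus strand, with 15224 and 50 antisense counts, against 68359 in ovaries, 116201 in eggs and 6458 in spermatheca. In spermatheca it was ms35565, with 9984. The leading third-block TE thus changed between tissues.

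The densest TE of the cluster in testes was no LARD but ms35566, a class II element of 541 bases on the plus strand, whose 7 segments are interleaved with 6 Tc1-Mariner remnants. It had 44084 sense counts in ovaries, 83984 in eggs, 14944 in testes, 58 in semen and 5128 in spermatheca. Of the third block this was 5.55% in ovaries, 5.74% in eggs and 9.57% in spermatheca, antisense counts included, and 17.3% in testes and 16.4% in semen.

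**Figure D4:**
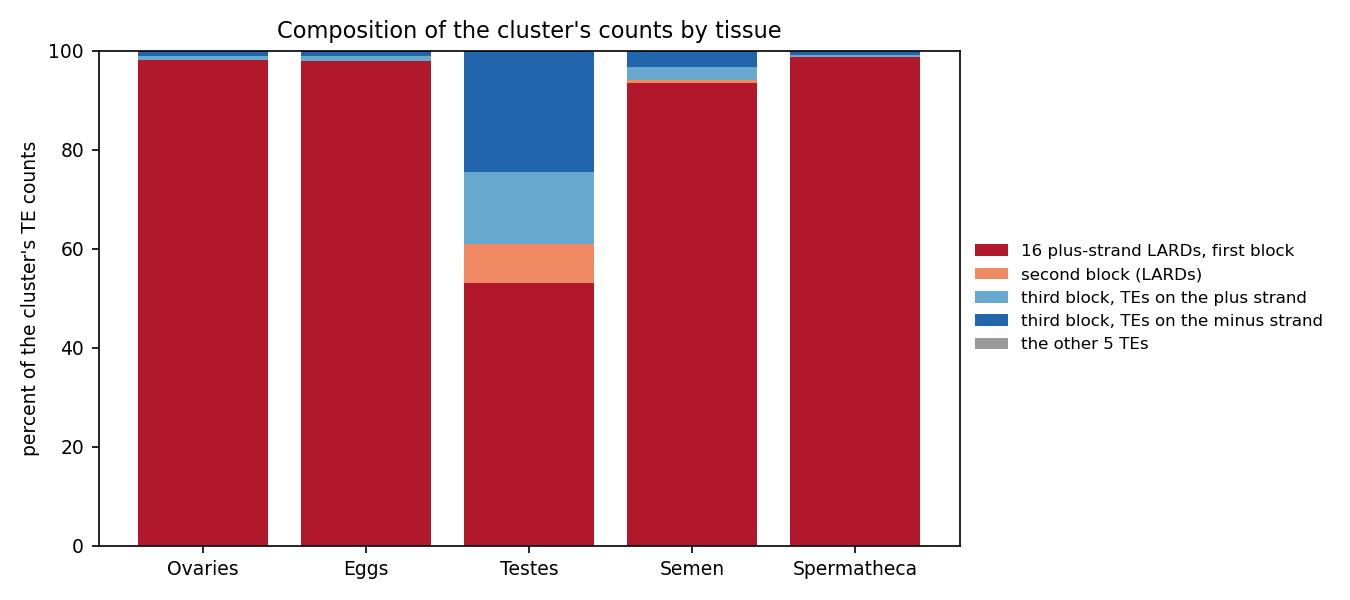
Percent of the cluster's TE counts on the 16 plus-strand LARDs of the first block, on the second block, on the third block's TEs of each annotated strand, and on the other 5 TEs, stacked to 100% for each tissue. The LARD array fills 97.9% to 98.8% of the bar in ovaries, eggs and spermatheca, 93.5% in semen and 53.2% in testes.

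Of the 48 cluster TEs with at least 20 counts in both tissues, 3 of the third block had more counts in testes than in ovaries as deposited, with no scaling. They were SMAR2, ms35584 and ms35585, singled out after their values were seen. SMAR2, a Tc1-Mariner element of 201 bases on the minus strand, had 72 antisense counts in ovaries, 85 in eggs, 1003 in testes, 6 in semen and 23 in spermatheca. The element ms35584, of 142 bases and no class, had 0 antisense counts in ovaries, 20 in eggs, 366 in testes, 2 in semen and 1 in spermatheca. The class II element ms35585, annotated on the minus strand, had 10 sense and 57 antisense counts in ovaries and 174 and 89 in testes. These 3 lie within bases 349957 to 364300, and the last pair were minus-strand reads for the most part in testes.

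**Figure D5:**
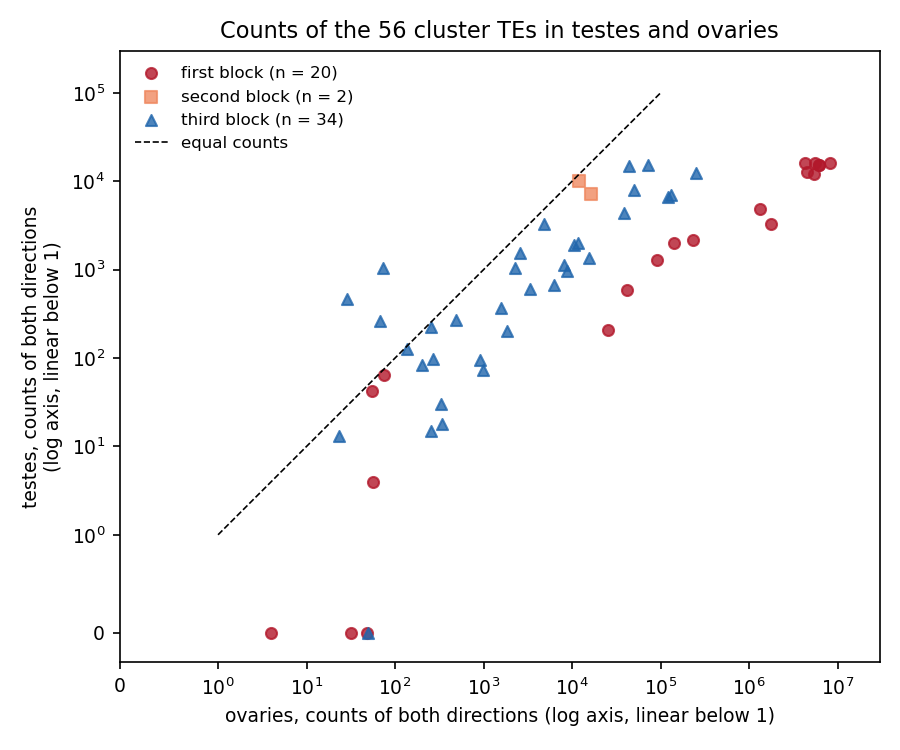
Counts of both directions of the 56 cluster TEs in testes against ovaries, on log axes that are linear below 1, coloured by block, with a dashed line at equal counts. The long LARDs of the first block lie at 4321945 to 8272633 counts in ovaries and 11964 to 16118 in testes, and 3 third-block TEs lie above the line.

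How alike a pair of tissues was in their distribution over the 56 TEs was measured as the share of counts they have in common, the sum over TEs of the smaller of the 2 percentages. It was 96.8% for ovaries and eggs, 95.5% for ovaries and spermatheca and 97.1% for eggs and spermatheca. Testes shared 53.3% with ovaries and 57.9% with semen, whereas semen shared 93.7% with ovaries, 94.3% with eggs and 94.5% with spermatheca. Over the 34 TEs of the third block alone the order was another. There, semen shared 80.6% with testes, 71.9% with ovaries, 70.4% with eggs and 66.3% with spermatheca, from 354 semen counts. This measure is dominated by the LARD array. By rank over the 56 TEs, where each TE counts alike, Spearman's rho of semen was 0.930 with testes, 0.902 with eggs, 0.899 with ovaries and 0.898 with spermatheca, given as a description. Which tissue semen was nearest to thus depended on the measure and on the block.

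Semen's lane was also that of 4 egg libraries. Its counts on the 7 long LARDs were between 0.00740% and 0.00945% of the egg counts, and its counts on the third block were 0.0242% of them. Against testes, its counts on the long LARDs were 4.99% and on the third block 0.408%. Without ms35558 the LARD array still held 92.2% of semen's cluster counts. The part of the shared lane in the semen profile was not tested.

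For comparisons of single TEs, pairs of tissues were scaled by TMM, a method of edgeR that sets the scale so that most TEs of the table are unchanged. A TE was compared if either tissue had 5 counts or more on it, and it was called when it differed by over 5-fold. A fold against 0 counts was taken against 3 counts, as a lower bound. Where such a bound pointed the other way the TE had no fold and could not be called. Ovaries enter 3 of the 5 pairs, and testes, semen and spermatheca enter 2 each, so the pairs are not independent.

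In spermatheca against ovaries no cluster TE was called, of 48 tested sense (45 with a fold) and 37 tested antisense (37 with a fold). Over all TEs 16.7% of sense and 19.6% of antisense entries were called higher in spermatheca, and 1.07% and 1.57% lower. The first-block sense folds had a median of -0.23 on the log2 scale and lay between -1.20 and 0.42. Spermatheca counts were 10.2% of ovary counts on the entire cluster, with the 42 members of at least 20 counts in both tissues between 2.77% (ms35592) and 32.9% (SMAR2). No replicate test stands behind this count of 0.

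In eggs against ovaries 1 of 49 cluster TEs was called in sense, SMAR11 with 1 count in eggs and 7 in ovaries, and it was lower in eggs. In antisense 2 of 39 were higher, ms35584 with 20 counts against 0 (at least 6.15-fold) and ms35568 with 281 against 49, and ms35580 was lower with 1 count against 7. All but ms35568 rest on few counts. That element is 39 bases long, and its fold of 2.40 on the log2 scale is close to the limit of 5-fold. By table totals 0 cluster entries were called higher in eggs. Over all TEs 4.74% of sense entries were called higher in eggs and 5.81% lower, and 4.34% and 5.19% of antisense entries. Unscaled, the counts of the 7 long LARDs in eggs were 137.4% to 165.0% of those in ovaries. The sense totals of all TEs had a ratio of 1.55 between eggs and ovaries, which lies within that range.

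In testes against ovaries the blocks of the cluster parted. Of 49 cluster TEs tested in sense, 24 were lower in testes and 6 were higher, where 25.3% and 21.1% of all TEs were called in these directions. In the first block 14 of 16 were lower, with a median of -6.18 on the log2 scale over the 16, beside -0.76 over all TEs. The extremes were ms51691, at 3252 counts against 1770377 and 145.8-fold lower (140.8 to 150.9), and ms35558, 138.9-fold lower (136.8 to 141.1). The 2 LARDs of the second block were not called (median 1.17), and in the third block 10 of 31 were lower and 6 higher (median 0.25). In antisense 19 of 51 were higher and 3 lower, 11 of the folds being lower bounds against 0 counts, with 24.1% and 26.2% of all TEs called in these directions. Of the 16 first-block TEs tested in antisense 13 were higher, the LARD ms35554 with 66 counts against 1, and ms35584 of the third block had 366 against 0 (at least 391-fold higher).

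These directions depend on the scale. By the totals of each table, 52 cluster entries of both directions were called higher in testes and none lower, in place of 25 and 27, and the median moved from -0.37 to 2.48 on the log2 scale. Of 98 entries with a fold, 70 kept their sign. The contrast between the array and the third block does not need a scale: testes counts were 0.268% of ovary counts on the array (0.193% to 0.373% for its 7 long LARDs) and 10.9% on the third block.

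In semen against testes 13 of 44 cluster TEs were lower in sense and 8 of 46 in antisense, and none was higher. Only 31 of the 44 and 20 of the 46 had a fold, so the others are undecided. The 13 first-block TEs tested in antisense had none. Over all TEs 484 of 901 tested in sense and 459 of 946 in antisense had a fold. Over all TEs 11.2% and 9.51% were called lower in these tables and 9.21% and 12.4% higher. In sense the 2 LARDs of the second block were both lower, ms35548 by 29.8-fold (18.9 to 47.2) with 18 counts against 9681, and 8 of 26 in the third block were lower. The first block had 3 of 16 lower and a median of -0.32 on the log2 scale. The first-block median was thus the nearest to 0 of the 3 blocks, the others being -4.67 and -2.81. By table totals 39 entries were called lower in place of 21.

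In semen against spermatheca 17 of 36 cluster TEs were lower in sense, and in antisense 8 of 32 were lower and 1 was higher, SMAR2 with 6 counts against 23 and an interval of 2.78 to 15.8-fold. Here 28 of the 36 and 20 of the 32 had a fold. Over all TEs 13.4% and 12.7% were called lower and 7.04% and 6.34% higher. The LARD ms35554 had 690 sense counts in semen and 614630 in spermatheca, which was 36.9-fold lower (34.2 to 39.8).

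Outside the cluster the counts were few and concentrated. The 3 leading TEs held 64.5% of the counts of the rest in ovaries, 74.3% in eggs, 62.6% in testes, 41.5% in semen and 40.6% in spermatheca. The LARD ms35626 and the TRIMs ms37160, ms36820 and ms36792, singled out after their values were seen, were the 4 leading entries in ovaries and eggs and were at 0 in testes and semen. LARD ms35626 (bases 2096052 to 2096266) had 771 sense counts in ovaries, 2081 in eggs and 71 in spermatheca. The TRIM ms37160 had 615, 498 and 34, the TRIM ms36820 had 414, 188 and 89, and the TRIM ms36792 had 206, 241 and 24. These were sense reads in the main, on the minus strand for ms35626, ms36820 and ms36792.

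Other TEs of the rest had most of their counts in testes. The class II element ms36806, of 214 bases at 5222126 to 5222339, had 438 sense counts in testes, 71 in ovaries, 84 in eggs, 1 in semen and 5 in spermatheca, and no antisense count. The element ms36742, with no class and 627 bases, had reads of both directions, 66 sense and 55 antisense in testes, 30 and 27 in spermatheca, 4 and 8 in semen, 4 and 7 in ovaries and 5 and 10 in eggs. It was the leading entry of the rest in semen. In the TMM-scaled comparison it was 61.4-fold higher in spermatheca than in ovaries in sense (22.6 to 167). The remaining entries of the 10 with the highest mean share, ms36743, ms37173, ms35733, ms35674, ms37021, ms35821, ms36499 and ms36574, had 0 to 43 counts in each tissue.

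Genes that overlap cluster TEs inside the cluster also had most of their counts from the plus strand. GB40293, on the minus strand across ms35547 and ms35548, had 216 sense and 12733 antisense counts in ovaries and 218 and 9784 in testes. The same read can be counted on the gene and on the TE, so these counts are no second measurement.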

How the data were processed

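Small RNA libraries were made with the Illumina TruSeq kit. The authors mapped reads to Amel 4.5 (CLC Genomics in the methods, Bowtie 1.2.3 in the submitters' processing notes), removed other known RNAs, kept reads of 26 to 31 nt, and counted them on TEs and genes with featureCounts of Rsubread 1.22.2. The deposited values are raw counts in 4 tables, sense and antisense, with 1 column per tissue. Which libraries a column pools, whether by sum or mean, and how reads with several positions or on overlapping TEs were counted are not given in the sources used here. For repeated TEs this sets how counts are divided among near-identical copies, and between TEs that overlap (18 of the 56 in the cluster), so values of single TEs are uncertain in that respect. In the cluster, 10 entries also pool segments on other scaffolds.

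Members, lists and blocks were chosen with earlier results of these data known. Class was read from TE names. Shares used Wilson intervals (SciPy 1.17.1, pandas 2.3.3, Python 3.11.15). Folds came from TMM factors (edgeR 4.0.16, R 4.3.3), per table over all TEs, with a floor of 3 counts. Alternatives were DESeq2 1.42.0 size factors, table totals, no scaling, other count and fold limits, and other sets of members. The fold step was tried on simulated pairs of columns drawn from a single tissue's proportions. It recovered 1552 of 1842 simulated 10-fold changes (84.3%) and called 190 unchanged entries. Since most entries were left unchanged there, this does not show how TMM does where tissues differ as widely as testes and ovaries. TEs named were the 10 of the cluster and the 10 of the rest with the highest mean share of chromosome 16 counts, up to 2 called folds per direction and pair, the edge TEs, and the cluster TE with the most antisense counts per tissue. Others are named after their values were seen. Tests between replicates were not possible.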

Additional observations from a re-analysis of the deposited data

How the results depend on the processing

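No paired analysis was possible because each table has 1 pooled column per tissue, and for the same reason no replicate could be left out. Of 245 alternative values 108 stayed within their limits and 137 moved. With counts this high an interval is very narrow, so that most of the moves in shares are small. DESeq2 size factors and 1 TMM factor from both tables moved no count of called cluster entries by over 1.5 times, and the use of TEs wholly inside the cluster moved no share beyond its interval. Semen, with 6010 cluster counts, is the shallowest.

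The cluster's share of TE counts is given in the order ovaries, eggs, testes, semen and spermatheca. Without the leading member it was 63.43%, 65.05%, 17.85%, 3.742% and 63.1%. Without members that overlap another TE it was 77.25%, 78.4%, 15.57%, 4.367% and 75.52%, and without those that overlap a gene 70.06%, 71.51%, 16.06%, 3.991% and 67.69%. With gene counts in the denominator it was 69.87%, 70.65%, 10.53%, 2.119% and 61.51%, and without the leading TE of the entire table, taken out of the denominator and, where it is a cluster member, of the cluster's counts too, 74.06%, 75.61%, 20.28%, 11.32% and 72.42%. With entries wholly on chromosome 16, an alternative chosen after seeing the data, it was 77.73% in ovaries, 78.96% in eggs, 18.71% in testes and 75.92% in spermatheca.

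The plus-strand share of the cluster without the leading member was 99.93% in ovaries, 99.95% in eggs, 98.63% in testes and 99.95% in spermatheca. Without members that overlap another TE it was 99.97%, 99.97%, 98.8% and 99.98%. Without members that overlap a gene it was 99.94% in ovaries, 99.95% in eggs and 99.96% in spermatheca, and with entries wholly on chromosome 16 it was 99.95%, 99.96%, 98.81% in testes and 99.96% in spermatheca. The LARD array's share of cluster counts, also with alternatives chosen later, was 98.23%, 97.94%, 54.67% and 98.83% in ovaries, eggs, testes and spermatheca with entries wholly on chromosome 16, and 97.75%, 97.4%, 49.48%, 92.19% and 98.51% in the 5 tissues without the leading member.

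Counts of called cluster entries, both directions of reads together, moved as follows. At a limit of 2-fold, 3 were higher and 13 lower in spermatheca against ovaries, 11 higher and 8 lower in eggs against ovaries, 42 lower in testes against ovaries, 33 lower in semen against testes, and 4 higher and 38 lower in semen against spermatheca. Unscaled, 78 were lower in spermatheca against ovaries, 15 higher and 45 lower in testes against ovaries, 78 lower in semen against testes, and 0 higher and 54 lower in semen against spermatheca. By table totals, 0 were higher in eggs against ovaries, 52 higher and 0 lower in testes against ovaries, 39 lower in semen against testes, and 3 higher in semen against spermatheca. With no filter on low counts, 1 was lower in spermatheca against ovaries, 37 were lower in semen against testes and 0 higher in semen against spermatheca. With at least 20 counts, 1 was higher and 0 lower in eggs against ovaries, and 7 were lower in semen against testes. The cause of these moves was not tested, beyond the change of scale or limit itself.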
